A study of Mus musculus with 4 samples.

Results

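The nesprins Syne1, Syne2 and Syne3, the SUN proteins Sun1 and Sun2, the torsin ATPases Tor1a and Tor1b and the torsin cofactor Tor1aip2 were examined in liver of mice with and without Tm7sf2, an enzyme of cholesterol synthesis that is also held at the nuclear envelope. The members were chosen by name, and every probe set that the deposited annotation gives to them was taken. All 8 genes were found, and they were read by 20 of the 45037 probe sets tested on the Affymetrix MOE430 v2 array. A probe set is a group of short oligonucleotides against 1 transcript region, and its value is a log2 expression level. The groups were WT and Tm7sf2-KO males on the C57Bl/6 background, aged 6 weeks, with 2 arrays each. The knockout had been backcrossed to that background, and the labels name no promoter or Cre that would limit it to 1 cell type. The labels do not say whether the duplicate arrays came from separate animals, so p-values rest on a spread between arrays that may be technical. In whole liver, fewer cells of a type and less RNA per cell cannot be told apart.

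These proteins couple the nucleus to the cytoskeleton. SUN proteins span the inner nuclear membrane, touch the lamina on the inside and bind, in the space between the nuclear membranes, the short tail (KASH domain) of nesprins that sit in the outer membrane. Nesprins reach into the cytoplasm, where they hold actin, intermediate filaments or microtubule motors, and the whole bridge is called the LINC complex. Torsins are ATPases of the endoplasmic reticulum and perinuclear space that work only with an activating membrane protein, and they are known for a part in the upkeep of the nuclear envelope and of LINC complexes. Hepatocytes, the main cells of the liver, are polarised epithelial cells with actin and keratin networks, while Syne1 was first described at the nuclei below the synapse on muscle fibres.

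The Tm7sf2 probe set brightest in WT read 10.25 and 10.27 on the WT arrays and 7.47 and 7.55 on the KO arrays, so the arrays followed their genotype labels, while the other Tm7sf2 probe set read 7.46 to 7.54 on all 4. Array medians were 6.66 to 6.67, and all 12 hepatocyte markers were above background, the albumin gene Alb among them at 14.68 to 14.76 on the 4 arrays. Background was set at 6.72, the 95th percentile of 84 probe sets for olfactory, vomeronasal and taste receptor genes, which liver should not express. Both Tm7sf2 probe sets stayed above this level on the KO arrays, so a reading above it need not show an intact transcript. The 45 added control transcript probe sets read 0.36 higher in KO on average. The 3' end exceeded the 5' end of 3 control transcripts by more in KO than in WT, by 0.12 (Gapdh) to 0.33 (Pcx), and the part of this RNA quality measure in the results was not tested.

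Of the 20 probe sets, 1 passed 5% FDR, and it was higher in KO, where 1.25% of all probe sets passed, 0.684% higher and 0.568% lower. It belonged to Syne1. None reached both 5% FDR and an absolute log2 change of 0.5, the thresholds of the study's methods, which 0.706% of all probe sets did. By limma 5 of the 20 had an unadjusted p under 0.05 (25.0%, against 13.0% of all), with 4 higher in KO and 1 lower, against 7.08% of all probe sets higher and 5.96% lower. All 3 Syne1 probe sets were among these 5, so the share is not an excess across the genes. With the probe sets of each gene averaged, Syne1 was the 1 gene of 8 with an unadjusted p under 0.05 in limma. The WT and KO arrays did not overlap at 9 probe sets (45.0%, against 41.1% of all), 6 higher and 3 lower in KO (22.4% and 18.7% of all), a share near the background. The median change over the 20 was 0.05, against 0.01 over all probe sets. At 19 of the 20 the 95% confidence interval of the change lay within -0.5 to 0.5 (95.4% of all probe sets), so a change in reading beyond 1.41-fold lay outside it. At 14 of the 20 the mean level was above background. The other 6 were among the 19, and at such a signal a narrow interval does not bound the change of the transcript. Of all 45037 probe sets, 24111 were not above background.

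**Figure D1:**
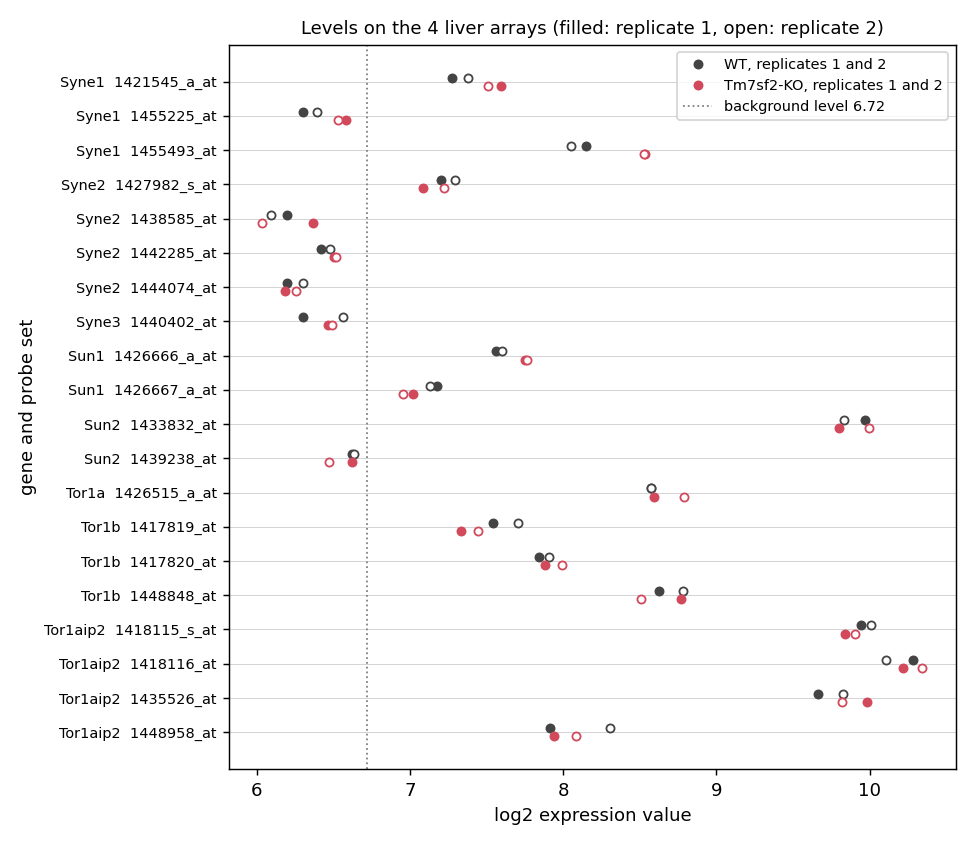
Log2 expression values (x axis) of each of the 20 probe sets (y axis) on the 2 WT arrays (dark) and the 2 Tm7sf2-KO arrays (red), with the background level of 6.72 as a dotted line. The KO points of all 3 Syne1 probe sets lie to the right of the WT points, while 6 probe sets, 3 of them for Syne2, lie left of the background line.

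Syne1, on chromosome 10, encodes the giant nesprin that binds actin through its first domains and has many shorter forms. RefSeq lists 3 start regions for it in the table used, shown here because Syne1 carried the only call and the array does not tell which start its RNA came from. Each sequence runs 5′ to 3′ from 250 bases before to 50 bases after an annotated start on the gene's strand (RefSeq, GRCm38.p6). Capitals mark, on either strand, the GC box with the letters GGGCGG, the CCAAT box with the letters of its name, and the TATA box, which was searched as TATAAA. A box here is a match of letters at any position, and TTTATA is such a match on the opposite strand. Whether a match acts in a promoter was not tested.
Syne1 first start, chr10:5550643-5550942, - strand: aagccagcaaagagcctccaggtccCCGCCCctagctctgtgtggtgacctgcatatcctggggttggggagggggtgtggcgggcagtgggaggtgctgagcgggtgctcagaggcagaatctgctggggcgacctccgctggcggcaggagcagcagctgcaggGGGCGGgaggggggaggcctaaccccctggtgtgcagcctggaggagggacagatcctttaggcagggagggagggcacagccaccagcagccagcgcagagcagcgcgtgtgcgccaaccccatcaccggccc
Syne1 second start, chr10:5488265-5488564, - strand: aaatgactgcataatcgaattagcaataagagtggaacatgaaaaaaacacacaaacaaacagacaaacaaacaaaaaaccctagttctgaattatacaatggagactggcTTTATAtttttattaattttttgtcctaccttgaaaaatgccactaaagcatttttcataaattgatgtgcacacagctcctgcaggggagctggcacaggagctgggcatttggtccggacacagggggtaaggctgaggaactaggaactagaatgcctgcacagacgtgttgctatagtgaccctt
Syne1 last start, chr10:5069014-5069313, - strand: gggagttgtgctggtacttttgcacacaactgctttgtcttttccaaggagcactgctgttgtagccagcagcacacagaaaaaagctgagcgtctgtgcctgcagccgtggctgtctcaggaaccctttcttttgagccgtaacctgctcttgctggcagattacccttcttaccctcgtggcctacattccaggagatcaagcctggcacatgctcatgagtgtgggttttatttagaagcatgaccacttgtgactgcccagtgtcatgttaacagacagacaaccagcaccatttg
The first start region held 69.0% G and C with 2 GC boxes, the second 40.3% with 1 TATA box, and the last 50.3% with none of the motifs. Among 32851 promoters of the same length in the table, 35.7% held a GC box, 37.4% a CCAAT box and 13.6% a TATA box, and the median G and C content was 52.7%.

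At the brightest Syne1 probe set, 1455493_at, the WT arrays read 8.15 and 8.05 and the KO arrays 8.54 and 8.53. Both KO arrays were higher than both WT arrays, and the KO replicates lay closer together than the WT replicates. The level was 8.10 ± 0.07 in WT and 8.53 ± 0.01 in KO (SD, n = 2 each). Syne1 thus rose by 0.43 with an SE of 0.08 (interval at 95% confidence 0.25 to 0.61), or 1.35-fold, with a limma adjusted p = 0.0386. The change was past 5% FDR and under the fold threshold, and the interval held values on both sides of that threshold. The second probe set, 1421545_a_at, read 7.27 and 7.38 in WT and 7.59 and 7.51 in KO, a change of 0.22 (interval 0.04 to 0.41, adjusted p = 0.283). The third, 1455225_at, read 6.30 and 6.40 in WT and 6.58 and 6.53 in KO, a change of 0.21 (interval 0.03 to 0.39, adjusted p = 0.310), and it was not above background. All 3 Syne1 probe sets therefore had KO arrays above WT arrays, with an adjusted p under 0.05 at 1 of them. They share the same arrays and gene and are not independent. The changes at 1421545_a_at and 1455225_at differed from that at the brightest by -0.21 (interval -0.48 to 0.06) and -0.22 (interval -0.49 to 0.04), with adjusted p = 0.580 and 0.542, so a difference between Syne1 probe sets was not shown.

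The Syne1 call rested on the complete set of arrays. With 1 array left out its change was 0.38 to 0.48 and limma's adjusted p was 0.610 and 0.662 when WT replicate 1 or 2 was dropped, and 0.556 and 0.518 when KO replicate 1 or 2 was. Tm7sf2 itself, with a change of -2.79 to -2.70, had the same adjusted p in each of these fits, in which 0 of all probe sets passed both thresholds and 3326 to 4217 had an unadjusted p under 0.05. As the mean of its 3 probe sets, Syne1 had a change of 0.29 (interval 0.13 to 0.44, adjusted p = 0.117). Centring each array on its control transcripts, which moved the median of all probe sets from 0.01 to -0.36, left 0.07 at 1455493_at (adjusted p = 0.483) and turned the other 2 to -0.14 and -0.16, so every change given is relative to the bulk of probe sets.

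Markers of other cells that could carry Syne1 were read on the same arrays. Of 12 genes of skeletal and smooth muscle, 9 were not above background, among them Acta1, Myh1, Myh4, Ttn and Myh11, and none passed 5% FDR. Above background were Acta2, Tagln and Ckm. Acta2 was higher in KO by 0.20 at its brighter probe set (limma unadjusted p = 0.0339, adjusted p = 0.331). At its other, not above background, it was higher by 0.29 (unadjusted p = 0.008, adjusted p = 0.183). Tagln changed by 0.12 and Ckm by -0.05 (adjusted p = 0.606 and 0.904). The genotypes did not overlap at Tagln or at either Acta2 probe set. The summed level of the 12 muscle genes, in linear units, was 1276 and 1299 in WT and 1332 and 1340 in KO. All 10 endothelial markers were above background, with sums of 3534 and 3466 in WT and 3401 and 3434 in KO, and none passed. The 9 stellate markers found summed to 5212 and 4929 in WT and 5223 and 4978 in KO, and none passed. The summed muscle level was thus higher and the summed endothelial level lower on both KO arrays. By direction 7 muscle genes were higher in KO and 5 lower, and 3 endothelial genes were higher and 7 lower. The mean log2 level of the muscle genes was 6.64 and 6.67 in WT and 6.68 on both KO arrays. That of the endothelial genes was 8.25 and 8.22 in WT and 8.17 and 8.19 in KO. Of 7 erythroid markers, 4 not above background, the sum was 7704 and 7575 in WT and 4887 and 5123 in KO. The haemoglobin gene Hbb-bt, the brightest of them, was lower (12.60 in WT and 11.81 in KO, change -0.80, limma adjusted p = 0.00191). The erythroid factor gene Klf1 was higher (0.47, adjusted p = 0.0341). By direction 5 of the 7 were higher in KO and 2 lower. Their mean log2 level was 7.94 and 7.93 in WT and 7.92 and 7.91 in KO, so the lower sum was not shared across the list. None of the 10 Kupffer, 7 biliary and 10 lymphoid markers passed. The part of these cells in the Syne1 result was not tested.

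The 3 genes whose array values ran closest to those of 1455493_at, after each probe set's mean over the 4 arrays was subtracted, were Gas1, a growth arrest gene, at a root mean square distance of 0.0047, Cntrl, which encodes the centrosomal protein centriolin, at 0.0060 and the prolactin receptor gene Prlr at 0.0099 (log2). With 4 arrays this likeness says little more than that the change and the replicate spread were alike.

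Syne2 and Syne3, both on chromosome 12, encode the second giant nesprin and the nesprin that binds plectin and through it intermediate filaments. Of the 4 Syne2 probe sets only 1427982_s_at was above background. It read 7.20 and 7.30 in WT and 7.09 and 7.22 in KO, a change of -0.09 (interval -0.29 to 0.10, limma adjusted p = 0.720). The arrays of the 2 genotypes overlapped there. The other 3 read between 6.04 and 6.51 on all arrays, with changes of -0.03 to 0.06 (adjusted p = 0.820 to 0.929). Syne3 had 1 probe set, also not above background, at 6.30 and 6.56 in WT and 6.47 and 6.49 in KO (change 0.05, interval -0.17 to 0.27, adjusted p = 0.901). The KO values fell between the WT values. For Syne3 and the 3 dim Syne2 probe sets a difference was not detectable at this signal.

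**Figure D2:**
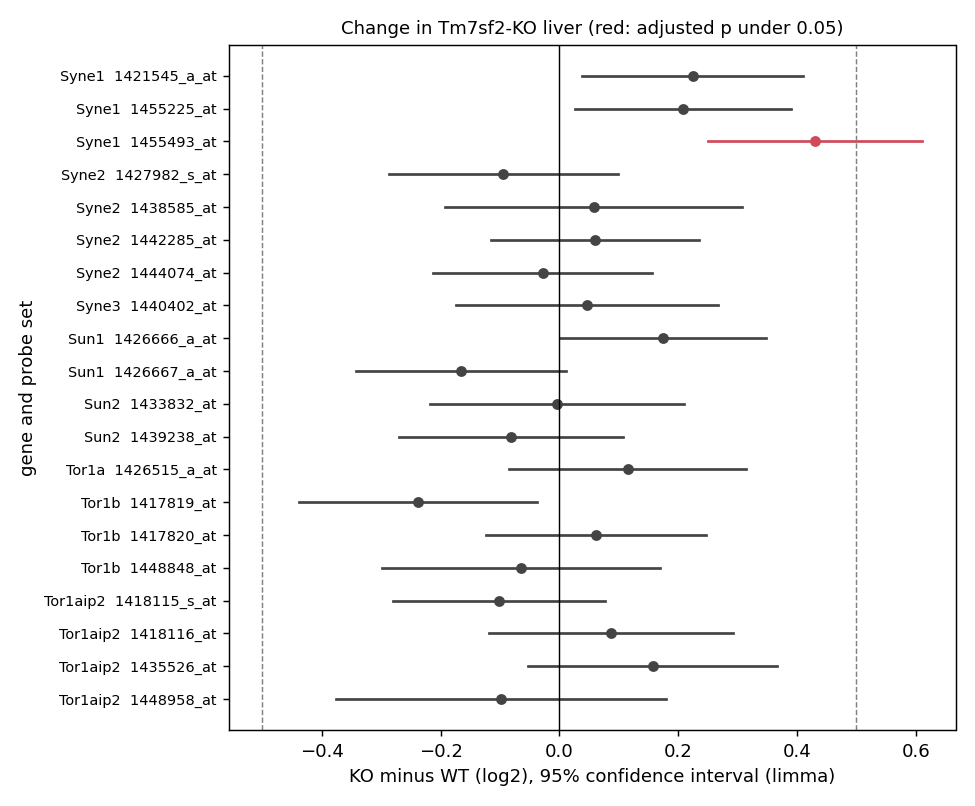
Change in log2 level between Tm7sf2-KO and WT liver (x axis, points) with its 95% confidence interval from limma (lines) for each of the 20 probe sets (y axis), n = 2 arrays per genotype. Dashed lines mark -0.5 and 0.5. The Syne1 probe set 1455493_at, in red, is the one with an adjusted p under 0.05, and its interval is the one that crosses a dashed line.

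Sun1, on chromosome 5, encodes a SUN protein that also binds telomeres in meiosis, and it was read by 2 probe sets that pointed in opposite directions. At 1426666_a_at the WT arrays read 7.56 and 7.60 and the KO arrays 7.75 and 7.76 (change 0.17, interval 0.001 to 0.35, limma adjusted p = 0.380). At 1426667_a_at the WT arrays read 7.18 and 7.13 and the KO arrays 7.02 and 6.96 (change -0.17, interval -0.34 to 0.01, adjusted p = 0.426). The genotypes did not overlap at either, KO being higher at the first and lower at the second. The difference between the changes was -0.34 (interval -0.60 to -0.08, unadjusted p = 0.0137 and adjusted p = 0.286 by limma over 13914 such pairs on the array). Of 12 such pairs among the members this was the 1 with an unadjusted p under 0.05 (11.5% of all pairs had one), and none passed 5% FDR (0.381% of all pairs did). With Tm7sf2-KO replicate 2 left out 2 pairs had an unadjusted p under 0.05, and with any other array left out 1 did. The mean of both probe sets gave a Sun1 change of 0.005 (interval -0.15 to 0.16).

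The suffix _a_at marks a probe set that reads several transcripts of its gene, and RefSeq lists 2 start regions for Sun1 in the table used. They are shown because the probe sets of this gene differed most from each other, and the sources used here do not tie either probe set to a start. Capitals are as above, and in the second region the TATA and CCAAT matches overlap.
Sun1 first start, chr5:139200387-139200686, + strand: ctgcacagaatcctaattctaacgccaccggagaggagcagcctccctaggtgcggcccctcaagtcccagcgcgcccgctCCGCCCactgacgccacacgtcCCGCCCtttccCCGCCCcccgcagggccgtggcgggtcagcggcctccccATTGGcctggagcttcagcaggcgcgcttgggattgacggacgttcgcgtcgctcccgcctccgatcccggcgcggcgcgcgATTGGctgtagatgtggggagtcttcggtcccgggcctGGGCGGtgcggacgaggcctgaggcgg
Sun1 second start, chr5:139214908-139215207, + strand: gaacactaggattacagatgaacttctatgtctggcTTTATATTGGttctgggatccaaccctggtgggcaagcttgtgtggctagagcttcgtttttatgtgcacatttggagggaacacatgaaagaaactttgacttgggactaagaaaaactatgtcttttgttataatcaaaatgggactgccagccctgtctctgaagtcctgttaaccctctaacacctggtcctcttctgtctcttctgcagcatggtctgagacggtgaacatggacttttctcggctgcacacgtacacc
The first region held 71.3% G and C, 4 GC boxes and 2 CCAAT boxes, and the second 45.3%, 1 CCAAT box and 1 TATA box. The first starts of Syne1 and Sun1 thus held GC boxes, and the later starts of these genes held none. Whether RNA starts at any of these annotated sites in liver was not tested.

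Sun2, on chromosome 15, encodes the other SUN protein of somatic cells. At 1433832_at it read 9.97 and 9.83 in WT and 9.80 and 9.998 in KO, with means of 9.90 ± 0.10 and 9.90 ± 0.14 (SD, n = 2 each). The genotypes overlapped fully and the change was -0.004 (interval -0.22 to 0.21, limma adjusted p = 0.993). The second probe set, 1439238_at, was not above background at 6.62 and 6.64 in WT and 6.62 and 6.47 in KO (change -0.08, interval -0.27 to 0.11, adjusted p = 0.761).

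**Figure D3:**
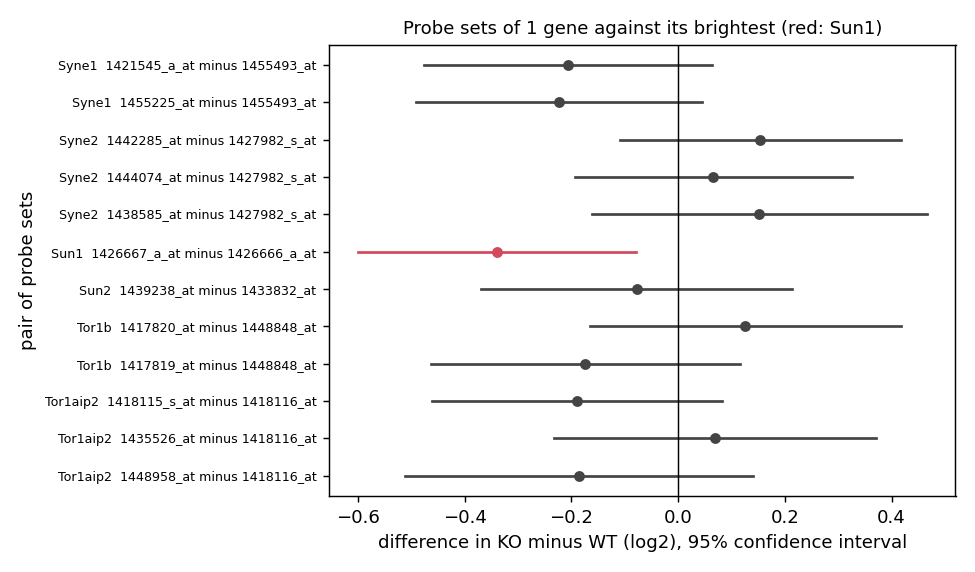
Difference between the KO minus WT change of a probe set and that of the brightest probe set of the same gene (x axis, log2, points) with its 95% confidence interval from limma (lines) for the 12 pairs of the members (y axis), n = 2 arrays per genotype. The Sun1 pair, in red, at -0.34 is the one whose interval leaves out 0.

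Tor1a and Tor1b, neighbours on chromosome 2, encode torsinA, the protein altered in an early-onset dystonia of humans, and its close relative torsinB. The Tor1a probe set 1426515_a_at read 8.58 on both WT arrays, the same value to the last digit, and 8.59 and 8.79 on the KO arrays (change 0.12, interval -0.08 to 0.31, limma adjusted p = 0.656). The KO replicates differed from each other by more than the genotype means did. Tor1b was read by 3 probe sets. At 1417819_at it read 7.54 and 7.71 in WT and 7.33 and 7.44 in KO, a change of -0.24 (interval -0.44 to -0.04, unadjusted p = 0.0248, adjusted p = 0.293 by limma), the lowest among the 20 probe sets. Both KO arrays were below both WT arrays there. At 1417820_at the arrays of the genotypes overlapped, with 7.84 and 7.91 in WT and 7.88 and 7.99 in KO (change 0.06, adjusted p = 0.827). At 1448848_at they overlapped as well, with 8.63 and 8.78 in WT and 8.77 and 8.51 in KO (change -0.06, adjusted p = 0.863). The lower Tor1b reading was thus seen at 1 of 3 probe sets, and its difference from the brightest was -0.17 (interval -0.46 to 0.12, adjusted p = 0.672).

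Tor1aip2, on chromosome 1, encodes LULL1, the torsin activator of the endoplasmic reticulum. Its 4 probe sets were all above background. The brightest, 1418116_at, read 10.28 and 10.11 in WT and 10.22 and 10.35 in KO (change 0.09, interval -0.12 to 0.29, limma adjusted p = 0.764). At 1435526_at it read 9.66 and 9.82 in WT and 9.99 and 9.82 in KO (change 0.16, interval -0.05 to 0.37, adjusted p = 0.545), and the genotypes overlapped at both. At 1418115_s_at it read 9.94 and 10.01 in WT and 9.84 and 9.91 in KO (change -0.10, adjusted p = 0.663), with no overlap. The suffix _s_at marks a probe set that may also read other genes. At 1448958_at the WT replicates were 7.91 and 8.30 and the KO replicates 7.94 and 8.08, so the spread within WT exceeded the change of -0.10 (adjusted p = 0.816). The gene mean over the 4 probe sets differed by 0.01 (interval -0.15 to 0.18). Its neighbour Tor1aip1, which encodes the torsin activator LAP1 of the inner nuclear membrane, read 0.16 higher in KO at 1426084_a_at and differed by -0.28 at 1458364_s_at, neither past 5% FDR (adjusted p = 0.414 and 0.198).

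Of 38 further genes of the LINC complex and its partners in the lamina, the pores, the torsin family and the motor proteins, 37 were found with 80 probe sets. None passed 5% FDR in limma, 15 had an unadjusted p under 0.05 (18.8%, against 13.0% of all), 5 higher and 10 lower in KO, and the median change was -0.03. The lowest p was that of Lmna, the A-type lamin gene to whose protein SUN proteins bind, at 8.43 and 8.36 in WT and 7.92 and 8.07 in KO (change -0.40, interval -0.59 to -0.21, adjusted p = 0.0621). Its limma adjusted p was 0.0352 to 0.0476 in 4 of the alternatives and 0.0514 to 0.0989 in the other planned fits of all 4 arrays. With 1 array left out its change was -0.47 to -0.33. At its 4 other probe sets the change was -0.15 to 0.10. Tmpo, which encodes the lamina protein LAP2, followed with 7.90 and 8.06 in WT and 7.66 and 7.49 in KO (change -0.41, interval -0.62 to -0.20, adjusted p = 0.0845), with -0.23 to -0.16 at its 3 other probe sets. The limma adjusted p of this Tmpo probe set was 0.0473 among probe sets above background and 0.0534 to 0.130 in the other planned fits of all 4 arrays. With 1 array left out its change was -0.49 to -0.33. Tmem33, a membrane protein of the endoplasmic reticulum, differed by -0.29 at 1431105_a_at (adjusted p = 0.139) and by -0.19 to -0.07 at its 4 other probe sets. The pore component Nup153 pointed both ways, with -0.29 at 1452176_at (adjusted p = 0.145) and 0.19 at 1441733_s_at (adjusted p = 0.384), and the genotypes overlapped at neither. The other nesprin on the array, Syne4, read 6.82 to 6.92 as group means at its 2 probe sets, with changes of -0.10 and 0.04 (adjusted p = 0.686 and 0.915), and of the further SUN genes, known from the testis, Sun3 and Sun5 were not above background while Spag4 was, at 6.93 in both genotypes (change -0.001).

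**Figure D4:**
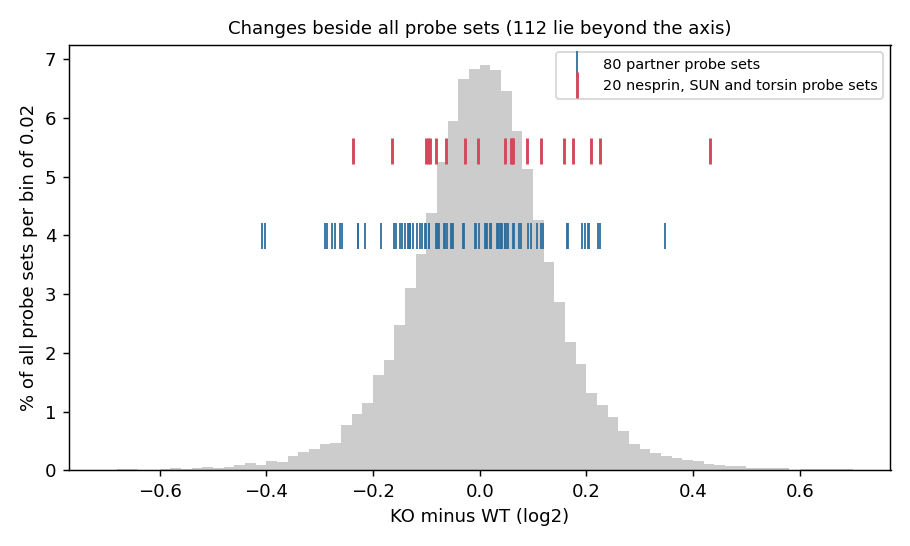
Distribution of KO minus WT changes (x axis, log2) over all 45037 probe sets as % of probe sets per bin of 0.02 (grey, y axis), with the 80 partner probe sets (blue) and the 20 nesprin, SUN and torsin probe sets (red) as ticks, whose height has no meaning. The member ticks run from -0.24 to 0.43 and 112 probe sets lie beyond the axis.

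The members lie on 6 chromosomes. The protein-coding genes next to them, among genes read by the array, were looked up in the RefSeq table after the members' values had been seen. These 14 genes had 32 probe sets, of which 2 passed 5% FDR (1.25% of all probe sets did) and 7 had an unadjusted p under 0.05 in limma (13.0% of all). Both calls belonged to Clmn, which neighbours Syne3 and encodes calmin, a membrane protein with an actin-binding domain of the kind nesprins carry. Clmn rose at 1439117_at from 8.43 to 8.96 (change 0.53, limma adjusted p = 0.0248) and at 1429166_s_at from 8.17 to 8.63 (change 0.46, adjusted p = 0.0434), and its 4 other probe sets read -0.15 to 0.25 without a call. The genes on either side of Syne1 were Esr1, the oestrogen receptor gene, with changes of -0.29 to 0.06 over 3 probe sets, and Myct1, with -0.07 to 0.29 over 4, and none passed 5% FDR (adjusted p = 0.272 to 0.939).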

How the data were processed

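Liver RNA of 2 WT and 2 Tm7sf2-KO samples was measured on 4 arrays of 1 colour. The authors deposited 1 log2 value per probe set and array, which the study's methods describe as quantile normalized. Of tools, the submitters' processing notes list affy and limma, with no version. For background correction and probe summarisation the method is not stated in the sources used here. Probe sets were named from the comparison table that the authors deposited, whose columns of log2 ratios and p-values were not used. Precision is limited by the number of arrays.

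The 64 control probe sets were left out and 45037 were fitted with limma 3.58.1 in R 4.3.3 (lmFit, eBayes, two-sided, no covariate, 2 residual and 7.3 prior degrees of freedom), with Benjamini-Hochberg adjustment over all of them, after a check on simulated data. Every change is KO minus WT. FDR is the false discovery rate, and 5% FDR an adjusted p under 0.05. With 2 arrays a group the smallest exact permutation p is 0.333, so no such test was run. To compare probe sets of 1 gene, the within-array difference from the brightest was fitted the same way over all 13914 such pairs. Named were all 8 members, the 4 partner genes with the lowest p, Tm7sf2 and the 3 nearest patterns, and names outside this rule were chosen after their values were seen. Members and lists were chosen with earlier results of these data known. Promoters came from a RefSeq table (7 of 8 members matched). Alternatives were other variance priors, normalizations and filters, a replicate block, gene means and each array left out. Centring on control transcripts was added after seeing the data.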

Additional observations from a re-analysis of the deposited data

How the results depend on the processing

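The 1 member call at 5% FDR, Syne1 1455493_at, was kept with a variance trend, a robust variance prior, a second quantile normalization, median-centred arrays, the dim filter and named probe sets only. The count fell to 0 when each gene's probe sets were averaged. Over all probe sets, 318 passed both thresholds. Fits with 1 array left out keep 1 array in a group, so they do not test a call. Arrays sharing a replicate number did not deviate together (r = -0.04 across probe sets), so the number was not taken as a pairing. With it as a replicate block 0 members were called (Syne1 adjusted p = 0.066). Among partner probe sets 1 was called with a variance trend, 1 with a robust prior, 1 with median-centred arrays and 2 with the dim filter. Centring on control transcripts, added later, put 5539 of all probe sets past both thresholds, against 2 of the 20 member probe sets. At 5% FDR alone it called 16 member and 72 partner probe sets. In that limma fit 40409 of the 45037 probe sets had an unadjusted p under 0.05, so these counts are not particular to the members or partners. The change was -0.14 at Syne1 1421545_a_at and -0.16 at 1455225_at.

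With 1 array left out the sign turned at some probe sets near 0. The range was -0.11 to 0.22 for Syne2 1438585_at, -0.0799 to 0.0236 for Syne2 1444074_at, -0.0854 to 0.18 for Syne3, -0.10 to 0.10 for Sun2 1433832_at, -0.19 to 0.067 for Tor1b 1448848_at, -0.29 to 0.10 for Tor1aip2 1448958_at, -0.25 to 0.00046 for Lmna 1421654_a_at and -0.31 to 0.10 for Tmem33 1425568_a_at. The cause was not tested. Signal over background limits 6 of the 20 member probe sets, and Syne3 has no brighter one.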

Other observations

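The motor proteins that nesprins recruit were among the partners, and 2 of them, chosen after their values were seen, had changes of both signs across their probe sets. Whether these probe sets differed from each other beyond the replicate spread was not assessed here. Kif5b, the heavy chain of kinesin-1, differed by -0.27 at 1418428_at (unadjusted p = 0.0196), 0.20 at 1418427_at (0.0254) and 0.22 at 1418429_at (0.0491), while 1418430_at and 1418431_at gave 0.01 and 0.05 (limma, n = 2 arrays per genotype). None passed 5% FDR (adjusted p = 0.264 to 0.973). Bicd2, an adaptor of dynein, differed by 0.35 at 1450732_a_at, 0.20 at 1450733_at and 0.22 at 1437491_at, which was not above background, and by -0.08 and -0.06 at its other probe sets, again with none past 5% FDR (adjusted p = 0.178 to 0.833).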
